A study of Mus musculus with 4 samples.

Results

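The BCL2 family members described here are 10 of the 16015 genes listed in the deposited expression table and were matched by symbol. They are 4 pro-survival genes (*Bcl2*, *Bcl2l1*, *Bcl2l2* and *Mcl1*), 3 effectors (*Bax*, *Bak1* and *Bok*) and 3 BH3-only genes (*Bcl2l11*, *Bbc3* and *Bid*), and all 10 were found and tested. Colonic epithelial cells were taken from 2 control mice and 2 *Bmal1* cKO mice on day 7, after 5 days of 3% DSS (dextran sulfate sodium, which injures the colonic epithelium) in the drinking water and 2 days of water, and their RNA was sequenced in bulk. The controls are labelled wild type, and by the methods of the study they carried the floxed *Bmal1* allele without Cre (*Bmal1* fl/fl). The *Bmal1* cKO mice were Villin-CreERT2; *Bmal1* fl/fl, in which tamoxifen, injected for 5 consecutive days, activates a Cre recombinase driven by the epithelial Villin promoter. The methods do not say separately whether the controls received tamoxifen. All mice were C57BL/6 animals of 2 to 4 months from the same litter. Each library is 1 mouse, and the comparison asks how the genes that guard against or carry out mitochondrial cell death differ in the injured epithelium when the clock factor BMAL1 is deleted there.

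BCL2 family proteins decide whether the outer membrane of the mitochondrion stays closed. The effectors BAX and BAK1 open pores in it, the pro-survival proteins hold them in check, and the BH3-only proteins bind the pro-survival proteins or act on the effectors directly when a cell is damaged or deprived of signals. Once the membrane is open, cytochrome c is released and, with APAF1, activates caspase-9. In the gut epithelium this route removes damaged cells from the crypt, and BBC3 (PUMA), a target of p53, is well known for its part in crypt cell death after injury. All of these proteins are also regulated after transcription, MCL1 by rapid turnover in particular, so transcript levels are not protein levels.

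BMAL1 binds DNA as a dimer with CLOCK at the E-box, whose letters are CACGTG, and the promoters of the members were therefore searched for it. The windows, taken from RefSeq (build GRCm38.p6), run from 250 bases before to 50 bases after each start site, and all 10 members matched, with 15 windows among them. CACGTG, which reads the same on both strands, was found in 2 of the 15 windows, those of *Bax* and of 1 of the 3 start sites of *Bbc3*, and it is present in 7.15% of all 32851 windows. The GC box GGGCGG, searched on both strands with overlapping matches counted, was found in 11 of the 15 windows and in 35.7% of all windows. The 120 bases before the start site are shown for both genes with a CACGTG and for *Bcl2l1* and *Mcl1*, the pro-survival genes with the largest fall and the largest rise in the deposited values (after the GC and length correction described below, *Bcl2l2* rose more than *Mcl1*), read 5′ to 3′ on the strand of the gene. Capitals mark CACGTG and GGGCGG or its reverse complement CCGCCC.
*Bax* (chr7:45466899-45467018, minus strand): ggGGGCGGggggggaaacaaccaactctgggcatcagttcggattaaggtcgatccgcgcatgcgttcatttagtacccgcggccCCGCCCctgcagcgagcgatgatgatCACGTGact
*Bbc3* (chr7:16310311-16310430, plus strand): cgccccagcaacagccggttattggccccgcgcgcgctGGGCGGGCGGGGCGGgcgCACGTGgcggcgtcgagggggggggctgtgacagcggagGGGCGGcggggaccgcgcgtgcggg
*Bcl2l1* (chr2:152831729-152831848, minus strand, the farthest upstream of 3 start sites): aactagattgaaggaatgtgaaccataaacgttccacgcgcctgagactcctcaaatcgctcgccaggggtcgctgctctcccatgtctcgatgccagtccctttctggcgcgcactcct
*Mcl1* (chr3:95658601-95658720, plus strand): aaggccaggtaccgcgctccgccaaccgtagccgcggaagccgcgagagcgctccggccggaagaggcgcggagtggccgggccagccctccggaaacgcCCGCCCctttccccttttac
The CACGTG of *Bax* begins 9 bases before the start site, and another copy lies after the start, outside the stretch shown. The CACGTG of *Bbc3* begins 64 bases before its start. No window of *Bcl2l1* or *Mcl1* holds one. These are matches of letters and were not tested for binding here.

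The values are normalized counts, that is, gene counts divided by 1 size factor per library, as the authors deposited them. Between 10312791 and 14156639 reads per library fell on the listed genes. Changes are log2 fold changes of *Bmal1* cKO over control on the log2(normalized count + 1) scale, tested by limma, two-sided, across the 13983 genes whose mean reached 10, with the adjusted p-value of Benjamini and Hochberg and a threshold of 0.05. The targeted gene, listed as *Arntl*, was at 358 and 342 in control and at 341 and 289 in *Bmal1* cKO mice, and its log2 fold change was -0.16 (95% interval -0.52 to 0.21, adjusted p = 0.389 by limma). Reads over the whole transcript do not isolate a floxed exon, so this value does not check the deletion. Of 12 epithelial markers, 4 fell, 2 rose and 6 did not pass the test, beside 27.7% of all tested genes that fell and 29.0% that rose. After the GC and length correction described below, 0 fell and 4 rose, beside 11.5% and 28.1% of the tested genes. All 12 were detected in every library. *Epcam* was at 17455 and 21771 in control and at 18588 and 20320 in *Bmal1* cKO mice, with a log2 fold change near 0. Other markers of the list moved both ways, with *Cdx2* at -1.47, *Muc2*, the mucin of goblet cells, at -1.41, *Krt18* at -1.39 and *Lgals4* at -0.90, and with *Slc26a3*, an anion exchanger of absorptive cells, at 2.13 and *Krt20* at 0.68. None of the 4 that fell was called after the correction, whereas *Slc26a3* (1.57) and *Krt20* (0.94) were. The markers named here and in the next paragraph were chosen after their values were seen.

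Markers of other cells moved with the groups. Of 16 leukocyte markers, 13 were lower and 0 higher in *Bmal1* cKO mice, beside 27.7% and 29.0% of all tested genes. The summed level of these markers ran from 12977 to 20860 in control and from 1396 to 1527 in *Bmal1* cKO mice. Of 14 stromal and endothelial markers, 12 were lower and 0 higher, with sums from 4762 to 17626 in control and from 583 to 688 in *Bmal1* cKO mice. None of these markers was at 0 reads in both mice of a group, although *Des* was at 0 in *Bmal1* cKO mouse 1 and *Rgs5* at 0 in mouse 2. In bulk RNA, fewer cells of a type and less RNA per cell cannot be told apart, and the part of these other cells in the changes below was not tested.

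Of the 10 members, 6 fell and 2 rose in *Bmal1* cKO mice, beside 27.7% of all tested genes that fell, 29.0% that rose and 56.7% called in either direction. The 6 that fell were all 3 effectors, the BH3-only genes *Bcl2l11* and *Bbc3*, and the pro-survival gene *Bcl2l1*, and the 2 that rose were the pro-survival genes *Mcl1* and *Bcl2l2*. The normalized counts of the 2 groups did not overlap for any of the 10 members, which held for 82.1% of all tested genes (41.7% lower and 40.3% higher). GC-rich genes were lower in *Bmal1* cKO mice across the whole table, and 4 of the 6 falls, those of *Bax*, *Bak1*, *Bok* and *Bbc3*, were not called after each library was corrected for GC content and length.

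**Figure D1:**
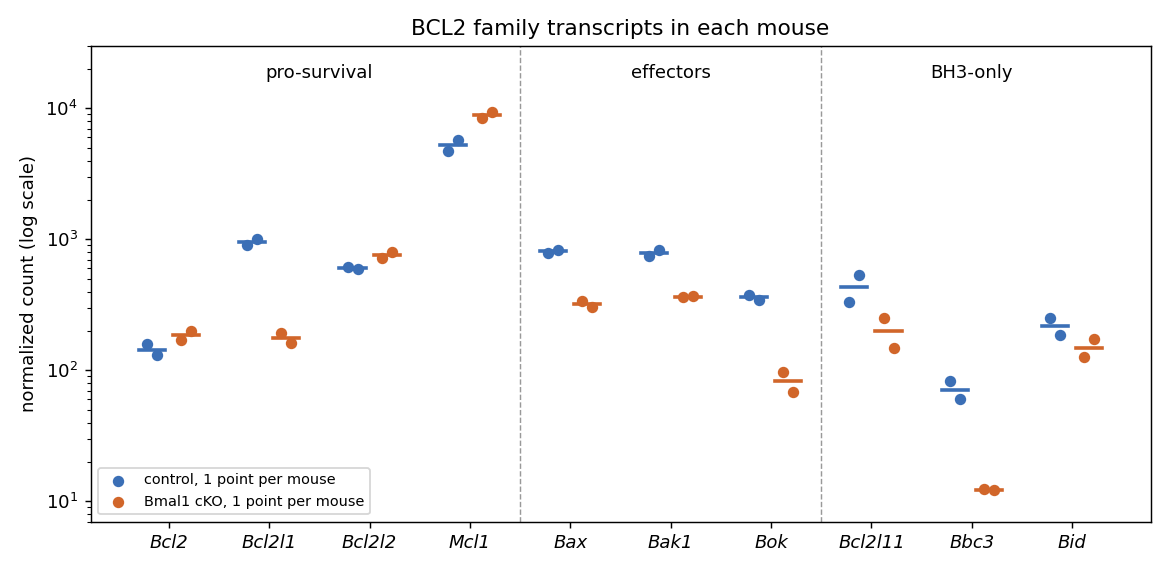
Normalized count of each member in each mouse on a log scale, with points for single mice and lines for group means of control (blue) and Bmal1 cKO mice (orange). The mice of the 2 groups do not overlap for any gene, Bcl2l1 falls from 899 and 1011 to 191 and 161, and Mcl1 lies above all other members in every mouse.

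Among the pro-survival genes, *Bcl2l1* and *Mcl1* moved in opposite directions. *Bcl2l1* (ENSMUSG00000007659, chr2:152780668-152831728, build GRCm38) encodes BCL-XL, a main restraint on BAX and BAK1 in epithelial cells. It was at 899 and 1011 normalized counts in control against 191 and 161 in *Bmal1* cKO mice. Both *Bmal1* cKO mice were far below both controls, and the means differed 5.42-fold, with a log2 fold change of -2.44 ± 0.15 (SE, n = 2 mice per group, adjusted p = 5.33e-04 by limma). With *Bbc3* at -2.43, this was the lowest log2 fold change of the 10 members, and it kept its call and direction under all 18 alternative settings, from -2.66 to -1.61.

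*Mcl1* (ENSMUSG00000038612, chr3:95658788-95663176) encodes a short-lived pro-survival protein that binds BAK1 and BH3-only proteins. It was at 4727 and 5707 in control and at 8379 and 9390 in *Bmal1* cKO mice. The rise was 1.70-fold (log2 fold change 0.77 ± 0.13, SE, n = 2 mice per group, adjusted p = 0.00584 by limma), and its interval ran from 0.44 to 1.11. Without *Bmal1* cKO mouse 2 the adjusted p was 0.0657.

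*Bcl2l2* (ENSMUSG00000089682, chr14:54883377-54888234) encodes BCL-W. It was at 616 and 592 in control and at 726 and 797 in *Bmal1* cKO mice, so that the groups were separate but close. The log2 fold change was 0.33 ± 0.11 (SE, n = 2 mice per group, adjusted p = 0.0422 by limma), and it was not called with any 1 mouse left out (adjusted p from 0.0719 to 0.156), by edgeR on recovered reads (0.0524), by DESeq2 (0.117) or with library total scaling (0.423). A gene model that reads through *Bcl2l2* shares 13.3% of its exon bases on the same strand, and its reads could be split between them.

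*Bcl2* (ENSMUSG00000057329, chr1:106538178-106714274), the founding member, was at 158 and 130 in control and at 170 and 200 in *Bmal1* cKO mice. This change did not pass the test (log2 fold change 0.36, 95% interval -0.15 to 0.87, adjusted p = 0.180 by limma). At 4 members, the pro-survival side thus held 1 fall, 2 rises and 1 gene that did not pass. Of all tested genes, 27.7% fell and 29.0% rose. The median log2 fold change of the 4 was 0.35, beside -0.04 over all tested genes.

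The 3 effectors all fell in the deposited values, but none was called after the GC and length correction described below, where the sign of *Bax* and *Bak1* turned. With a version of it centred on the median gene, both stayed negative (-0.10 and -0.070) and were not called. *Bax* (ENSMUSG00000003873, chr7:45461697-45466898), the pore former that moves from the cytosol to the mitochondrion, was at 791 and 827 in control and at 338 and 303 in *Bmal1* cKO mice. The control mean was 2.52-fold the *Bmal1* cKO mean (log2 fold change -1.33 ± 0.12, SE, n = 2 mice per group, adjusted p = 7.63e-04 by limma). The spread within a group was small, 809 ± 25.4 in control against 321 ± 25.2 in *Bmal1* cKO mice (mean ± SD). The gene model Gm45808 shares 12.2% of its exon bases on the same strand.

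*Bak1* (ENSMUSG00000057789, chr17:27019810-27029009), the pore former that sits in the mitochondrial membrane, was at 753 and 828 in control and at 363 and 369 in *Bmal1* cKO mice. It fell 2.16-fold (log2 fold change -1.11 ± 0.11, SE, n = 2 mice per group, adjusted p = 0.00107 by limma). The *Ggnbp1* gene on the other strand shares 18.2% of its exon bases, and reads of the pair could not be told apart if the counting did not use strand, which is not given in the sources used here.

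*Bok* (ENSMUSG00000026278, chr1:93685660-93695764), a BAX-like protein less well understood than the other two, was at 378 and 343 in control and at 97.7 and 68.9 in *Bmal1* cKO mice. It had the largest fall of the 3, at 4.32-fold (log2 fold change -2.12 ± 0.23, SE, n = 2 mice per group, adjusted p = 0.00127 by limma). Per kb of exon, *Bax* was 1.60 and 1.52 times *Bak1* in control and 1.42 and 1.25 times in *Bmal1* cKO mice, so that *Bax* was the higher of the pair in every mouse.

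Among the BH3-only genes, *Bbc3* (ENSMUSG00000002083, chr7:16308393-16318205) was at 82.8 and 60.1 in control and at 12.3 and 12.2 in *Bmal1* cKO mice. The 4 values rest on 98, 71, 12 and 9 reads. The fall was 5.83-fold (log2 fold change -2.43 ± 0.41, SE, n = 2 mice per group, adjusted p = 0.00523 by limma), with a 95% interval from -3.46 to -1.40.

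*Bcl2l11* (ENSMUSG00000027381, chr2:128126038-128162547) encodes BIM, which binds every pro-survival protein and is high in many immune cells. It was at 334 and 540 in control and at 250 and 149 in *Bmal1* cKO mice. Control mouse 2 was far above mouse 1, and the nearest mice of the 2 groups were 334 and 250. The log2 fold change was -1.13 ± 0.34 (SE, n = 2 mice per group, adjusted p = 0.0339 by limma), and the call was lost with any 1 mouse left out (adjusted p from 0.0545 to 0.192).

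*Bid* (ENSMUSG00000004446, chr6:120891930-120916853), which caspase-8 cleaves to carry a death receptor signal to the mitochondrion, was at 251 and 187 in control and at 125 and 173 in *Bmal1* cKO mice. This difference did not pass the test (log2 fold change -0.55, 95% interval -1.18 to 0.07, adjusted p = 0.110 by limma), although it did with counts scaled to library totals (0.0446). *Bcl2l13* on the other strand shares 17.7% of its exon bases.

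The falls lay mostly in GC-rich transcripts. Over the 13975 tested genes with a GC content, the rank correlation of the log2 fold change with the GC content of the exons was -0.62, across genes of the same 4 libraries. The genes were split into 10 equal classes by GC content. In the highest class (57.1% to 74.2%) the median log2 fold change was -1.39 and 74.6% of genes fell, whereas in the lowest class it was 1.13 and 4.36% fell. *Bax* at 58.7%, *Bok* at 60.8% and *Bbc3* at 63.7% GC were in that highest class. *Bax*, at -1.33, differed from the class median by 0.06, *Bok* by -0.72 and *Bbc3* by -1.04. *Bak1*, at 57.1% GC, was in the next class and differed from its median of -0.84 by -0.27.

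*Bcl2l1* and *Bcl2l11* lay far from genes of like GC content. *Bcl2l1* (53.9% GC) differed from its class median of -0.60 by -1.83, and *Bcl2l11* (46.9% GC) differed by -1.51 from a class median of 0.38, in a class where 8.73% of genes fell. *Mcl1* (48.7% GC) was 0.64 above its class median of 0.13. *Bcl2l2* (52.7% GC) was also 0.64 above its class, which had a median of -0.30 and in which 10.2% of genes rose.

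**Figure D2:**
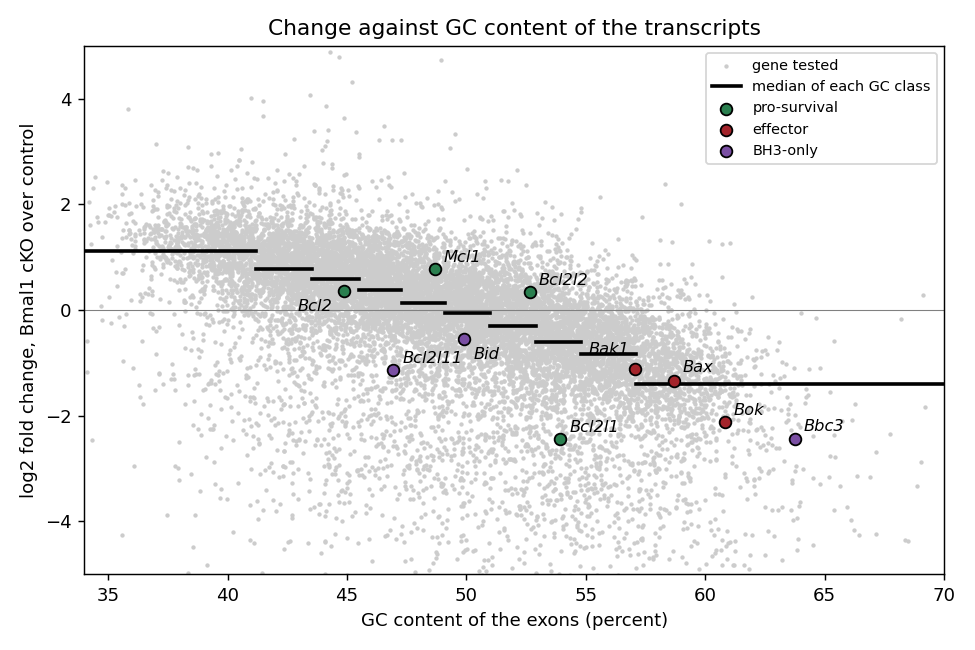
Log2 fold change of Bmal1 cKO over control for each tested gene (grey) against the GC content of its exons in percent, with the median of each of 10 GC classes (black lines) and the 10 members coloured by role. Bax differs from the median of its class by 0.06 and Bcl2l1 from its own by -1.83, and 129 genes fall outside the axes.

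When a loess fit against GC content and exon length was taken out of each library, 2 members fell and 2 rose, beside 11.5% and 28.1% of the tested genes (39.6% in either direction). *Bcl2l1* was still lower (log2 fold change -1.61, adjusted p = 0.00281 by limma), as was *Bcl2l11* (-1.24, adjusted p = 0.0332). *Mcl1* (0.90, adjusted p = 0.00865) and *Bcl2l2* (0.97, adjusted p = 0.00404) were still higher. The correction moved the median of all genes from -0.04 to 0.24. Relative to that median, *Bax* at 0.14 (95% interval -0.22 to 0.50) and *Bak1* at 0.17 (-0.18 to 0.53) were slightly below the middle of the table, and neither was called. *Bok* was at -0.34 (-0.89 to 0.22) and *Bbc3* at -0.22 (-1.20 to 0.76), so that the fall of these 4 genes depends on how GC content is treated. The same 2 lower and 2 higher members were called with 3 other versions of the correction, which were chosen after seeing the data. Whether the GC trend arose in the cells or in the libraries was not tested.

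**Figure D3:**
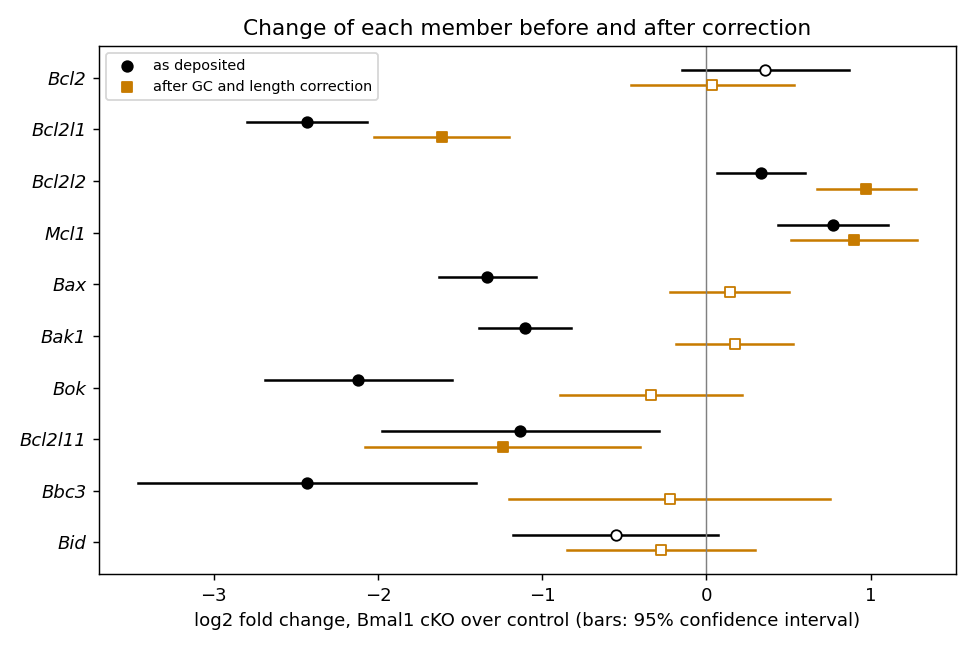
Log2 fold change of each member, Bmal1 cKO over control, with 95% confidence intervals, for the deposited values (black circles) and after the GC and length correction (orange squares). Filled marks have an adjusted p under 0.05, and the effectors and Bbc3 are filled only in black, whereas Bcl2l1, Bcl2l2, Mcl1 and Bcl2l11 are filled in both.

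Levels can be compared between members only per length, and here they are normalized counts per kb of exon. In control mice the order was *Mcl1* (1526 ± 203, mean ± SD of 2 mice), *Bax* (513 ± 16.1), *Bak1* (328 ± 22.2), *Bcl2l1* (208 ± 17.2), *Bok* (196 ± 13.3), *Bcl2l2* (135 ± 3.77), *Bid* (61.7 ± 12.7), *Bcl2l11* (54.4 ± 18.1), *Bbc3* (33.6 ± 7.54) and *Bcl2* (15.7 ± 2.13). The neighbours *Bcl2l1* and *Bok*, and *Bid* and *Bcl2l11*, overlapped between the mice, and all other neighbours were separate in both. In *Bmal1* cKO mice *Mcl1* was again first (2599 ± 209) and *Bax* next (203 ± 16.0). *Bcl2l2* (171 ± 11.3) was now above *Bak1* (152 ± 1.74), and *Bcl2l1* had gone from place 4 to place 7 (38.4 ± 4.70), where it overlapped with *Bid*. *Bbc3* was last (5.77 ± 0.06).

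The pro-survival pool was thus made up differently. *Mcl1* was 79.7% and 82.0% of the summed pro-survival level per kb in control against 91.7% and 92.1% in *Bmal1* cKO mice. *Bcl2l1* was 11.3% and 10.8% of it in control and 1.56% and 1.18% in *Bmal1* cKO mice. The ratio of *Mcl1* to *Bcl2l1* per kb was 7.06 and 7.58 in control and 58.8 and 78.3 in *Bmal1* cKO mice, a difference of 3.21 on the log2 scale, which was 2.51 after the GC and length correction. *Bcl2l2* was below *Bcl2l1* in both control mice (0.70 and 0.60 times) and above it in both *Bmal1* cKO mice (3.90 and 5.10 times).

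The 6 pro-death genes summed to 1171 and 1203 normalized counts per kb in control and to 491 and 456 in *Bmal1* cKO mice. The 4 pro-survival genes summed to 1734 and 2037 in control and to 2674 and 2983 in *Bmal1* cKO mice. The ratio of pro-death to pro-survival was therefore 0.68 and 0.59 in control and 0.18 and 0.15 in *Bmal1* cKO mice, a difference of -1.91 on the log2 scale (3.77-fold lower), given without a test. Without *Mcl1* the difference was -0.68, since the other pro-survival genes also summed to less (359 ± 11.3 in control, 229 ± 8.94 in *Bmal1* cKO mice), and after the GC and length correction it was -0.80. Both versions were lower in each *Bmal1* cKO mouse than in each control mouse. They were not combined, so the balance without *Mcl1* after the correction is not given. With each member counted alike (mean of log2 levels) the difference was -1.22.

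Single pairs within the balance went different ways. *Bax* over *Bcl2*, a ratio often used as a death index, was 29.1 and 36.8 per kb in control and 11.6 and 8.79 in *Bmal1* cKO mice. *Bax* over *Bcl2l1* was 2.56 and 2.38 in control and 5.15 and 5.48 in *Bmal1* cKO mice, which is the opposite direction. After the GC and length correction the difference between the groups in *Bax* over *Bcl2* was 0.10 on the log2 scale, against -1.70 in the deposited values, and the mice of the 2 groups overlapped. *Bax* over *Bcl2l1* was still higher in both *Bmal1* cKO mice after it, with a difference of 1.76 against 1.10. The ratio of *Bcl2l11* to *Mcl1*, the most abundant pro-survival transcript, was 0.030 and 0.040 in control and 0.013 and 0.0067 in *Bmal1* cKO mice.

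**Figure D4:**
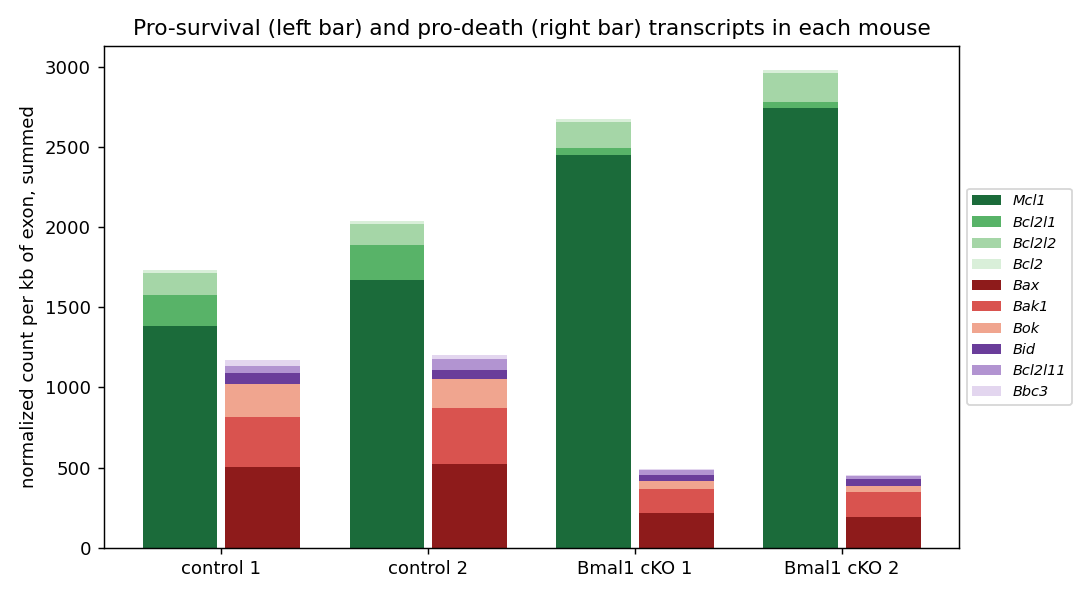
Normalized counts per kb of exon in each mouse, stacked by gene, for the 4 pro-survival members (left bar, greens) and the 6 pro-death members (right bar, reds and purples). The pro-death bars fall from 1171 and 1203 to 491 and 456, and Mcl1 fills 91.7% and 92.1% of the pro-survival bars of the Bmal1 cKO mice; the pro-death fall depends on the treatment of GC content, as no effector was called after that correction.

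Of 15 further family genes, 13 were listed and 12 tested, and 4 fell, 2 rose and 6 did not pass the test, beside 27.7% and 29.0% of all tested genes (median log2 fold change -0.30, against -0.04 over all tested genes). The largest falls were those of the A1 genes, pro-survival genes of leukocytes, with *Bcl2a1b* from 111 and 103 to 5.14 and 18.9 (log2 fold change -3.29), *Bcl2a1a* at -2.81 and *Bcl2a1d* at -2.04. These are near-identical copies whose reads the counting could split, and they fell together with the leukocyte markers above. *Bcl2l12* was at -1.18, and at -0.10 and not called after the GC and length correction. After that correction 3 genes of this list fell, the A1 genes, and 1 rose, beside 11.5% and 28.1% of the tested genes. The 2 rises of the deposited values, *Bcl2l13* (0.35, and again 0.35 after the correction) and *Bnip3l* (0.77, and 0.16 after it), were then not called. The 1 that rose was *Bad*, a BH3-only gene, at 1.04 (adjusted p = 0.00749 by limma) against -0.31 and not called before it. These 3 genes were named after their values were seen. *Pmaip1*, which encodes the MCL1-binding NOXA, was at 484 and 814 in control and at 940 and 738 in *Bmal1* cKO mice, and *Bmf* was at 101 and 24.6 against 62.7 and 114. The groups of both genes overlapped, and neither passed the test; both were named after their values were seen.

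Downstream of the mitochondrial pore the direction was mostly up. Of 15 genes, 9 rose, 2 fell and 4 did not pass the test, with a median log2 fold change of 0.83 (-0.04 over all tested genes), and 10 rose and 1 fell after the GC and length correction (median 0.74, against 0.24 over all tested genes, of which 28.1% rose). *Vdac3*, a channel of the outer membrane, was at 1749 and 1793 in control and at 4691 and 5404 in *Bmal1* cKO mice (log2 fold change 1.51, adjusted p = 5.37e-04 by limma), and its rise was 0.74 after the correction. *Xiap*, which inhibits caspases, went from 2300 and 2207 to 6032 and 6085 (1.43, and 0.55 after the correction). *Htra2*, a protease released from the mitochondrion that relieves inhibition by XIAP, was the largest fall, from 177 and 174 to 59.7 and 64.9 (-1.48), and it was not called after the correction, at -0.01. *Apaf1* (1.27, and 0.95 after the correction), named after its values were seen, also rose, whereas *Cycs*, which encodes cytochrome c and was named in the same way, fell by 0.61 on the log2 scale, and by 1.32 after the correction.

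Of 15 upstream regulators, 4 fell, 4 rose and 7 did not pass (median log2 fold change -0.03), whereas 1 fell and 5 rose after the GC and length correction. These counts are near the shares of all tested genes, 27.7% and 29.0% before the correction and 11.5% and 28.1% after it. *Rela*, a subunit of NF-kB, which drives *Bcl2l1* in many cells, was at 994 and 1030 in control and at 285 and 276 in *Bmal1* cKO mice (log2 fold change -1.85). *E2f1* (-1.78) also fell, and *Trp53*, which encodes p53, the activator of *Bbc3* and *Bax*, went from 1089 and 1150 to 331 and 387 (-1.64). *Trp53* was still lower after the GC and length correction (-0.98, adjusted p = 0.00592 by limma), whereas *Rela* (-0.22) and *E2f1* (-0.31) were not called. *Usp9x*, a deubiquitinase that stabilises MCL1, rose from 2220 and 2101 to 5501 and 5558 (1.36, and 0.51 after the correction). *Huwe1*, a ligase that marks MCL1 for degradation, named after its values were seen, was at 0.34 and was not called after the correction (0.20).

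**Figure D5:**
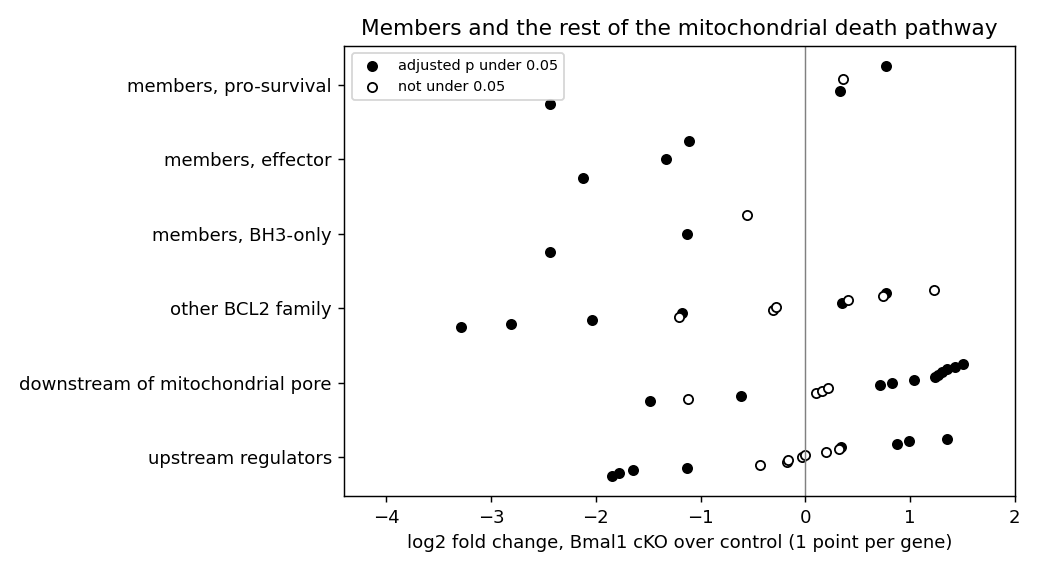
Log2 fold change of Bmal1 cKO over control for each tested member and each tested gene of 3 further lists, 1 point per gene, filled where the adjusted p was under 0.05. The effectors all lie left of 0 with the deposited values (Bax and Bak1 move to 0.14 and 0.17 after the GC and length correction), whereas 9 of 15 genes downstream of the pore are filled to the right of 0.

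The genes most like *Bcl2l1* over the 4 mice, by the distance between log2 levels centred on each gene among 9982 candidates with means of 100 or more, were *Hmga1* (distance 0.09), *Bmp8b* (0.09) and *Shf* (0.12), with log2 fold changes of -2.52, -2.43 and -2.41. Those most like *Mcl1* were *Ubxn2a* (0.04), *Dnah8* (0.05) and *Mettl5* (0.05), with log2 fold changes from 0.75 to 0.78. Over 4 mice in 2 groups, this likeness cannot be told apart from a like difference between the groups. By GC content, *Hmga1* (62.2%) and *Shf* (63.9%) were in the highest class, whereas *Bcl2l1* (53.9%) and *Bmp8b* (53.0%) were in a lower one.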

How the data were processed

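RNA of colonic epithelial cells from 2 control and 2 *Bmal1* cKO mice was sequenced. Per the labels and methods, the authors aligned reads to GRCm38 (mm10) with STAR and used DESeq2, and the counter, annotation release and strand setting are not given in the sources used here. The values the authors deposited are a signal, gene counts divided by a size factor, and dividing by the value of 1 read gave whole reads for 100% of values (tolerance 0.01). Their mean, log2 fold change, standard error, statistic and p-value columns were not used. The smallest mean listed was 3.39, so the table had been filtered. The labels and the methods name different library kits.

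Values were tested as log2(value + 1) by limma 3.58.1 (R 4.3.3) with a trend, for 13983 genes with a mean of at least 10. No covariate was used. Exon length and GC content came from GENCODE (GRCm38). The correction was a loess (span 0.3) per library. Alternatives were pseudocounts of 0.5 and 5, no filter, a minimum mean of 50, other scalings, edgeR 4.0.16 and DESeq2 1.42.0 on recovered reads, a replicate block, and leaving out each mouse. An exact permutation test cannot pass the threshold with groups of 2. P-values measure only the spread between these mice, with the variance of each gene moderated by limma towards that of other genes. Genes named were all members, up to 4 genes per pathway list with the largest changes among those called, and 3 nearest genes each for *Bcl2l1* and *Mcl1*, besides the targeted gene, and others are marked as named after their values were seen. Some genes that this rule names are not reported here. Members and lists were chosen with earlier results of these data known.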

Additional observations from a re-analysis of the deposited data

How the results depend on the processing

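Of 179 values of single members under alternative settings, 143 kept their direction and their side of the threshold, 25 lost the call, 1 gained it and 10 changed sign. With the GC and length correction, the members called lower went from 6 to 2, and all genes called lower from 3871 to 1612. The robust, GC-only and median-centred versions, chosen after seeing the data, gave 1888, 1728 and 2330 lower genes and again 2 lower members, and the last gave 2476 higher genes against 4059. Sign changes were seen with the correction in *Bax* (0.14, 0.048 and 0.080 with the planned, robust and GC-only versions) and *Bak1* (0.17, 0.078 and 0.079), and in *Bcl2* with the robust (-0.11) and median-centred (-0.21) versions. With the median-centred version, *Bax* (-0.10) and *Bak1* (-0.070) kept their sign but lost the call. Members called higher went from 2 to 1 with library total scaling (which moved the median gene to -0.26), edgeR, DESeq2 and the replicate block, the lost gene being *Bcl2l2*.

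Mice of the same replicate number did not deviate together across genes (correlation of deviations -0.09). With groups of 2, this cannot show whether the mice were paired. The replicate block gave 6 lower and 1 higher member, and with the GC and length correction 2 lower members and 1602 lower genes, with *Bax* at 0.14 and *Bak1* at 0.17. Leaving out 1 mouse gave 5 lower and 0 to 1 higher members, and 2205 to 2852 lower and 2654 to 3154 higher genes. In these fits the lone mouse is assumed to vary like the others. The balance of -1.91 ran from -2.05 to -1.78 with 1 mouse left out, was -0.80 after the correction, -1.22 with each member counted alike and -0.68 without *Mcl1*. The cause of these changes was not tested. With 9 and 12 reads in the *Bmal1* cKO mice, *Bbc3* is the member that depth limits most. The ratios of pairs of members after the correction were added after seeing the data.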
